A study of Homo sapiens with 8 samples.

Results

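Genes of the mitochondrial ribosome were followed across 4 groups of Caco-2 cells, a human colorectal adenocarcinoma line, on Illumina BeadChip expression arrays. The genes were those whose symbol starts with MRPL or MRPS and a number and whose probe passed detection (a detection p below 0.01) on 2 or more of 8 arrays, with the brightest probe standing for each gene. This gave 78 of the 10805 genes measured in the same way. Of these, 76 encode ribosomal proteins, 50 of the large and 26 of the small subunit, and the others are an antisense RNA, MRPL20-AS1, and a pseudogene, MRPS31P5. Detection held on all 8 arrays for 77 of the 78 genes, MRPS31P5 being detected on the 4 arrays of 1 chip only. The array carried 80 such symbols, and MRPL23-AS1 and MRPL42P5 did not pass detection.

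The study raised or lowered ESRP1, an RNA-binding protein that controls alternative splicing in epithelial cells. ESRP1-overexpressing cells carried an ESRP1 open reading frame on a lentiviral vector selected with blasticidin and were compared with cells carrying the empty vector (Empty). ESRP1-silenced cells carried a lentiviral short hairpin RNA against ESRP1, the same hairpin on both arrays, selected with puromycin, and were compared with cells carrying a scrambled hairpin (Scr). All 4 groups were adherent Caco-2 cultures with 2 arrays each, and the labels do not say whether the arrays of a group came from separate cultures, so the p-values rest on a spread between arrays that may be technical. Scr and ESRP1-silenced arrays shared 1 chip and Empty and ESRP1-overexpressing arrays the other, so neither comparison crossed chips. Levels are log2 normalized intensities, a difference of 1 being a 2-fold change, and a gene was called where the adjusted p of limma was under 0.05.

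ESRP1 itself read 8.03 and 8.32 on the Scr arrays against 6.37 and 6.16 on the silenced ones, and 8.26 and 7.91 on the Empty arrays against 9.75 and 9.96 on the overexpressing ones. It was thus higher by 1.77 on the log2 scale with overexpression (adjusted p = 0.0038). In silenced cells it was not detected, and the level in Scr was at least 3.09-fold higher (adjusted p = 0.047). The arrays detected 15153 to 17535 probes each. Arrays of a group correlated at 0.984 to 0.991 and arrays of different chips at 0.953 to 0.967, over all tested probes. Of 9 epithelial and intestinal markers with a probe, 8 were detected on all 8 arrays (LGALS4 was not detected). Of 15 markers of other cell types, COL1A1, LUM, PDGFRB, CD14, CD68 and PECAM1 passed detection. The defining leukocyte markers PTPRC, CD3E and CD79A, the fibroblast markers COL1A2, COL3A1 and DCN and the endothelial markers CDH5, VWF and KDR did not.

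The mitochondrial ribosome translates the few messenger RNAs of mitochondrial DNA, which encode core subunits of the respiratory chain and of ATP synthase. Its rRNAs come from mitochondrial DNA, whereas all of its proteins are encoded in the nucleus, made in the cytosol and imported. Many have counterparts in bacterial ribosomes and the others were gained in mitochondria. Here 45 of the measured proteins fell in the first class and 31 in the second. The symbols do not always give the subunit, since MRPS30 and MRPS18A lie in the large subunit.

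The genes are dispersed over 21 chromosomes, so their promoters were examined for shared letters. RefSeq promoters (build GRCh38.p14, 250 bases before to 50 bases after the start of transcription) were on hand for 68 of the 76 protein genes and for 15843 protein-coding genes in all. MRPL2, MRPL10, MRPL13, MRPL15, MRPL21, MRPL23, MRPL35 and MRPS28 were not among them. The letters CCGGAAG, bound by ETS factors such as GABP, stood on either strand in 28 of the 68 promoters (41.2%), against 14.2% of all. The letters AAGATGGC, bound by YY1, stood in 20 (29.4%), against 3.91% of all. For NRF1 (GCGCATGC) the count was 6 (8.82% against 4.26%), for the E-box CACGTG, bound by MYC, 6 (8.82% against 8.88%), and for SP1 (GGGCGG) 42 (61.8% against 58.5%). The ETS and YY1 letters were thus more frequent here than in the average promoter. This describes the sequence and not binding, and matches of the 2 may overlap, since CCGGAAG ends with the letters that AAGATGGC begins with.

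**Figure D1:**
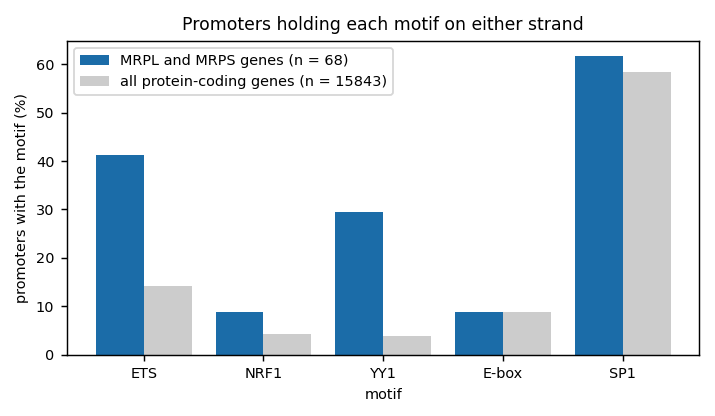
Percentage of promoters (y axis, from 0) that hold each of 5 motifs (x axis) on either strand, for 68 mitochondrial ribosomal protein genes (blue) and all 15843 protein-coding genes (grey). The blue bars stand above the grey for ETS (41.2% against 14.2%) and YY1 (29.4% against 3.91%) and are close to them for SP1 and the E-box.

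The YY1 letters were mostly at the very start of the transcript. Of 21 matches in these genes, 15 reached past the first transcribed base, and 17 lay on the gene's own strand. Over all protein-coding genes the letters lay much the same way, 417 of 647 matches reaching past the first base and 472 lying on the gene's strand. They hold an ATG, and whether it is the start codon was not examined. To show how alike the sites are, 24 bases around the match are given for 8 genes whose values follow, 5′ to 3′ on the gene's strand in build GRCh38.p14, with the match or its reverse complement in capitals.
MRPL42 (chr12:93467514-93467537, plus strand): attgaaacAAGATGGCgggttcgt
MRPL45 (chr17:38297173-38297196, plus strand): gcgggaacAAGATGGCagccccca
MRPL46 (chr15:88467365-88467388, minus strand): gagaacgaAAGATGGCggcgcccg
MRPS10 (chr6:42217837-42217860, minus strand): ggaccggcAAGATGGCggcgcgga
MRPS12 (chr19:38930724-38930747, plus strand): tggacgcaGCCATCTTggaccggg
MRPS18A (chr6:43687767-43687790, minus strand): ggtttttgAAGATGGCggccctca
MRPS18B (chr6:30617855-30617878, plus strand): cgtacgtcAAGATGGCggcgtctg
MRPS30 (chr5:44808952-44808975, plus strand): cgcgggcaAAGATGGCggcggcca
In 7 of these genes the match began 9 to 24 bases into the transcript, and in MRPS12 it began at position -212 from the start, on the opposite strand. There it lies past the start of the neighbouring gene SARS2, which begins 181 bases upstream of MRPS12 on that strand.

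With ESRP1 overexpression the mitochondrial ribosomal protein genes moved little, and 2 of the 78 were called, MRPL35 and MRPS15, both higher, against 8.07% of all genes. The share of called genes among them was thus below that of the array. No gene of the 78 differed by over 1.5-fold, against 14.7% of all genes. The median log2 fold change was -0.03 (0.00 over all genes), the range -0.39 to 0.50, and the middle 50% of genes spanned 0.27 against 0.45 over all genes. For 59 of the 78 genes (75.6%) the 95% interval of the fold change lay wholly within 1.5-fold in either direction, against 45% of all genes. The 78 genes were brighter than most, their median being 2.08 to 2.36 above that of all genes on the 8 arrays. Their median SD between arrays of a group was 0.10 in the fit, against 0.146 over all genes. How far level and noise account for the narrower spread in either comparison was not tested. Whether fewer cells of a kind or less RNA per cell lay behind a lower level cannot be told apart in bulk RNA. Without adjustment, 7 genes were higher (13.9% of all genes were) and 5 lower (12.9% of all genes) at p under 0.05. The arrays of the groups did not overlap for 43 of the 78 genes, 19 higher and 24 lower, against 60.3% of all genes.

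MRPL35 (chr2:86199433-86213794), a large subunit protein with a bacterial counterpart, stood at 11.46 and 11.59 on the Empty arrays and at 12.09 and 11.95 with overexpression. Scr arrays read 11.48 and 11.48 and ESRP1-silenced arrays 11.48 and 11.46. With this probe the overexpressing arrays were the only high ones, and the remaining 6 lay close together. The rise was 0.50 ± 0.11 on the log2 scale (SE, n = 2 and 2, adjusted p = 0.048), or 1.41-fold. The other probes of the gene were also higher over Empty, with other levels on the remaining arrays. In the second, with a difference of 0.86 (adjusted p = 0.036), Empty read 7.95 and 8.11, overexpressing cells 8.92 and 8.87 and the other chip 8.34 to 8.77, so that Empty was the low group. In the third, with a difference of 0.36 (adjusted p = 0.14), Empty at 10.19 and 10.15 was itself above the 9.60 to 9.86 of the other chip, and overexpressing cells read 10.57 and 10.49. With ESRP1 silenced the 3 probes differed by -0.01, 0.04 and -0.07.

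MRPS15 (chr1:36455718-36464384), whose bacterial counterpart binds the small subunit rRNA early in assembly, read 11.55 and 11.60 on the Empty arrays and 12.06 on both overexpressing ones. The Scr arrays read 12.29 and 12.36, the silenced ones 12.17 and 12.22. The Empty arrays were the low ones here, and the overexpressing arrays remained below all 4 arrays of the other chip. The rise over Empty was 0.49 ± 0.10 (SE, n = 2 and 2, adjusted p = 0.041), or 1.40-fold, and the silenced cells differed from Scr by -0.12 (adjusted p = 0.65). Both calls were lost when any 1 of the 8 arrays was left out (adjusted p from 0.070 to 0.21 for MRPL35 and from 0.058 to 0.17 for MRPS15), while the fold changes stayed between 0.43 and 0.57. They were also lost with the replicate number as a block (adjusted p = 0.076 and 0.064). The 120 bases before the start of MRPS15 are shown because it is the called gene with a promoter on hand. The SP1 letters are in capitals.
MRPS15 (chr1:36464385-36464504, minus strand): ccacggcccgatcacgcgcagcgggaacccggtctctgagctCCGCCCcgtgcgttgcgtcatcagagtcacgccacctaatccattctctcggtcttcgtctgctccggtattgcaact

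MRPL1 (chr4:77862830-77952785), the protein of the stalk through which deacylated tRNA leaves, had a difference as large as those of the called genes but missed the threshold. Empty arrays read 10.23 and 10.18 against 10.84 and 10.57 with overexpression, and Scr arrays 10.77 and 10.86 against 10.53 and 10.47 with silencing. The groups did not overlap in either comparison, and the direction was opposite. It differed by 0.50 ± 0.13 with overexpression (adjusted p = 0.068) and by -0.31 ± 0.13 with silencing (adjusted p = 0.36). The difference between the comparisons was 0.81 (adjusted p = 0.068). The difference with overexpression passed in 4 of 17 alternative settings, among them the authors' own normalized values (0.45, adjusted p = 0.034).

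**Figure D2:**
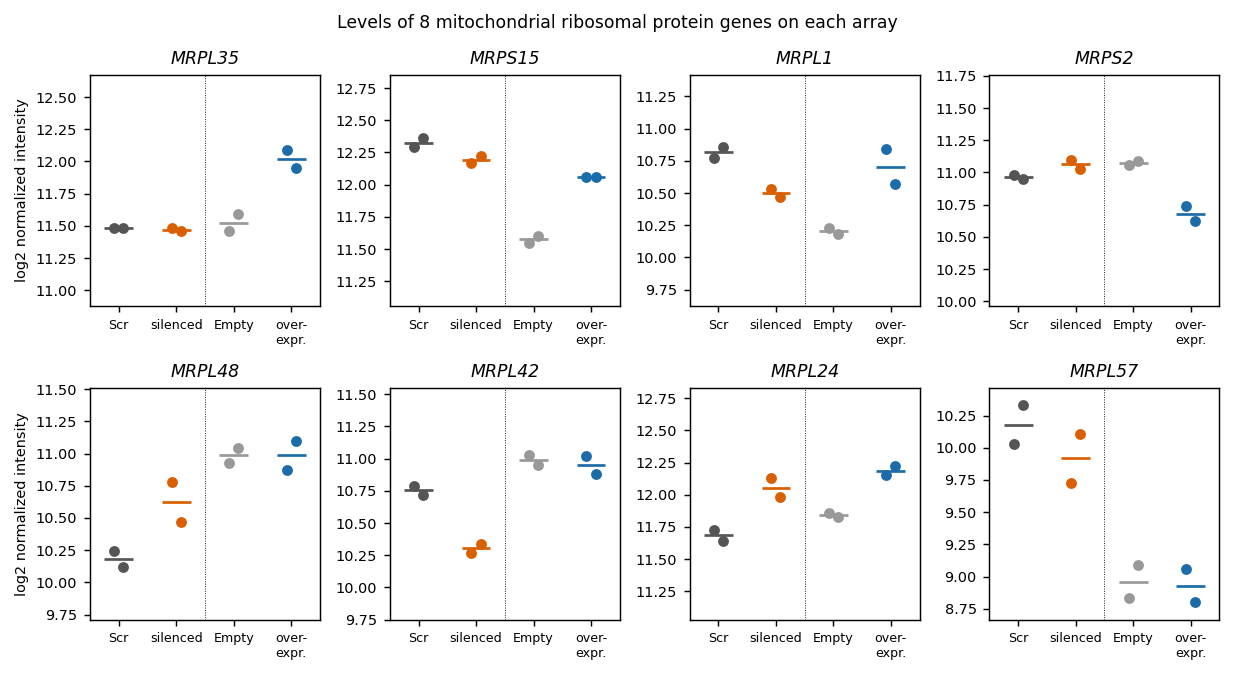
Log2 normalized intensity (y axis) of 8 genes on each of the 8 arrays (points), by group (x axis), with the mean of each group as a line; the dotted line separates the chips. Each panel spans the same height. MRPL35 is high on both ESRP1-overexpressing arrays alone, MRPS15 and MRPL1 are low on the Empty arrays, and MRPL57 and MRPL48 differ mainly between the chips.

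The remaining high values with overexpression were those of MRPL39 (0.34 ± 0.22, adjusted p = 0.37), MRPL24 (0.34 ± 0.11, adjusted p = 0.13) and MRPS9 (0.34 ± 0.13, adjusted p = 0.17). MRPS9 is the protein whose tail, in bacteria, reaches toward the tRNA in the decoding site. The lowest value was that of MRPS2, a small subunit protein, with 11.06 and 11.09 on the Empty arrays against 10.74 and 10.62 with overexpression. These are the lowest MRPS2 values of the 8 arrays, Scr reading 10.98 and 10.95 and silenced cells 11.10 and 11.03. Its difference was -0.39 ± 0.11 (adjusted p = 0.079), and like that of MRPL1 it passed in 4 of 17 alternative settings. The large subunit genes MRPL15 and MRPL53 differed by -0.37 (adjusted p = 0.21) and -0.36 (adjusted p = 0.095), and the small subunit genes MRPS11 and MRPS25 by -0.36 (adjusted p = 0.22) and -0.31 (adjusted p = 0.19). MRPL20-AS1, the antisense RNA, differed by -0.37 (adjusted p = 0.097), from 11.08 and 11.11 to 10.68 and 10.77. MRPL20 itself differed by -0.06 with its brightest probe (adjusted p = 0.861) and by 0.14 with its second (adjusted p = 0.734).

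With ESRP1 silenced none of the 78 genes was called by limma (0 of 78), against 0.157% of all genes. The methods' t-test was applied here to the same normalized values. It gave 1 of the 78 genes at its p threshold of 0.01, against 403 of the 18231 probes tested. None of the 78 also passed 1.5-fold, against 125 of all probes. No gene differed by over 1.5-fold (5.41% of all genes did), and the log2 fold changes ran from -0.45 to 0.45 with a median of 0.03, which was 0.05 above the median of all genes. Intervals within 1.5-fold were found for 64 of the 78 genes (82.1%), against 53.3% of all genes. Without adjustment, 5 genes were higher (6.24% of all genes were) and 2 lower (8.12% of all genes), all of them of the large subunit. The arrays did not overlap for 27 of the 78 genes, 17 higher and 10 lower, against 47.6% of all genes. Of the 2 silenced arrays, replicate 1 read higher than replicate 2 for 53 of the 78 genes (67.9%, against 48.2% of all genes). The median over the list was 0.001 above that of all genes without replicate 1 of the silenced cells and 0.104 above it without replicate 2. Of the 2 Empty arrays, replicate 1 read higher for 27 of the 78 genes (34.6%, against 50.4% of all genes). The shares were 57.7% in Scr and 47.4% in overexpressing cells (48.2% and 48.7% of all genes).

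MRPL48, a protein found only in mitochondrial ribosomes, had the highest value with silencing. Scr arrays read 10.24 and 10.12 against 10.78 and 10.47 with silencing, and Empty arrays 10.93 and 11.04 against 10.87 and 11.10 with overexpression. The Scr arrays were thus the low ones among the 8. The difference was 0.45 ± 0.15 (SE, n = 2 and 2, adjusted p = 0.30), and with overexpression it was 0.00. MRPL24 followed with 0.37 ± 0.11 (adjusted p = 0.26), from 11.73 and 11.64 to 12.13 and 11.98. It was higher in both comparisons and with both of its probes, the second differing by 0.38 with overexpression and 0.47 with silencing. MRPL40 (0.32), MRPL30 (0.29), MRPL43 (0.29) and MRPS23 (0.28) came next, with adjusted p from 0.32 to 0.44. The promoter of MRPL48 holds the ETS letters, in capitals in the 120 bases before its start.
MRPL48 (chr11:73787754-73787873, plus strand): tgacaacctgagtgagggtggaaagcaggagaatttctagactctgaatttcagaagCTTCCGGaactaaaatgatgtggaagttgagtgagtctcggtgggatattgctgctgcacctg

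MRPL42 had the lowest value with silencing. Scr arrays read 10.79 and 10.72 against 10.27 and 10.34 with silencing, and Empty arrays 11.03 and 10.95 against 11.02 and 10.88 with overexpression. The silenced arrays were the lowest of the 8. The difference was -0.45 ± 0.11 (adjusted p = 0.20), and it passed only with a variance prior that follows the level (adjusted p = 0.039). The probes of the gene did not move alike, since the second differed by -0.19 with silencing and by 0.43 with overexpression (adjusted p = 0.097), where the first differed by -0.04. After MRPL42 and MRPL1 came MRPL57 (-0.26), MRPS16 (-0.23), MRPS10 (-0.22) and MRPL37 (-0.18), with adjusted p from 0.46 to 0.59.

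**Figure D3:**
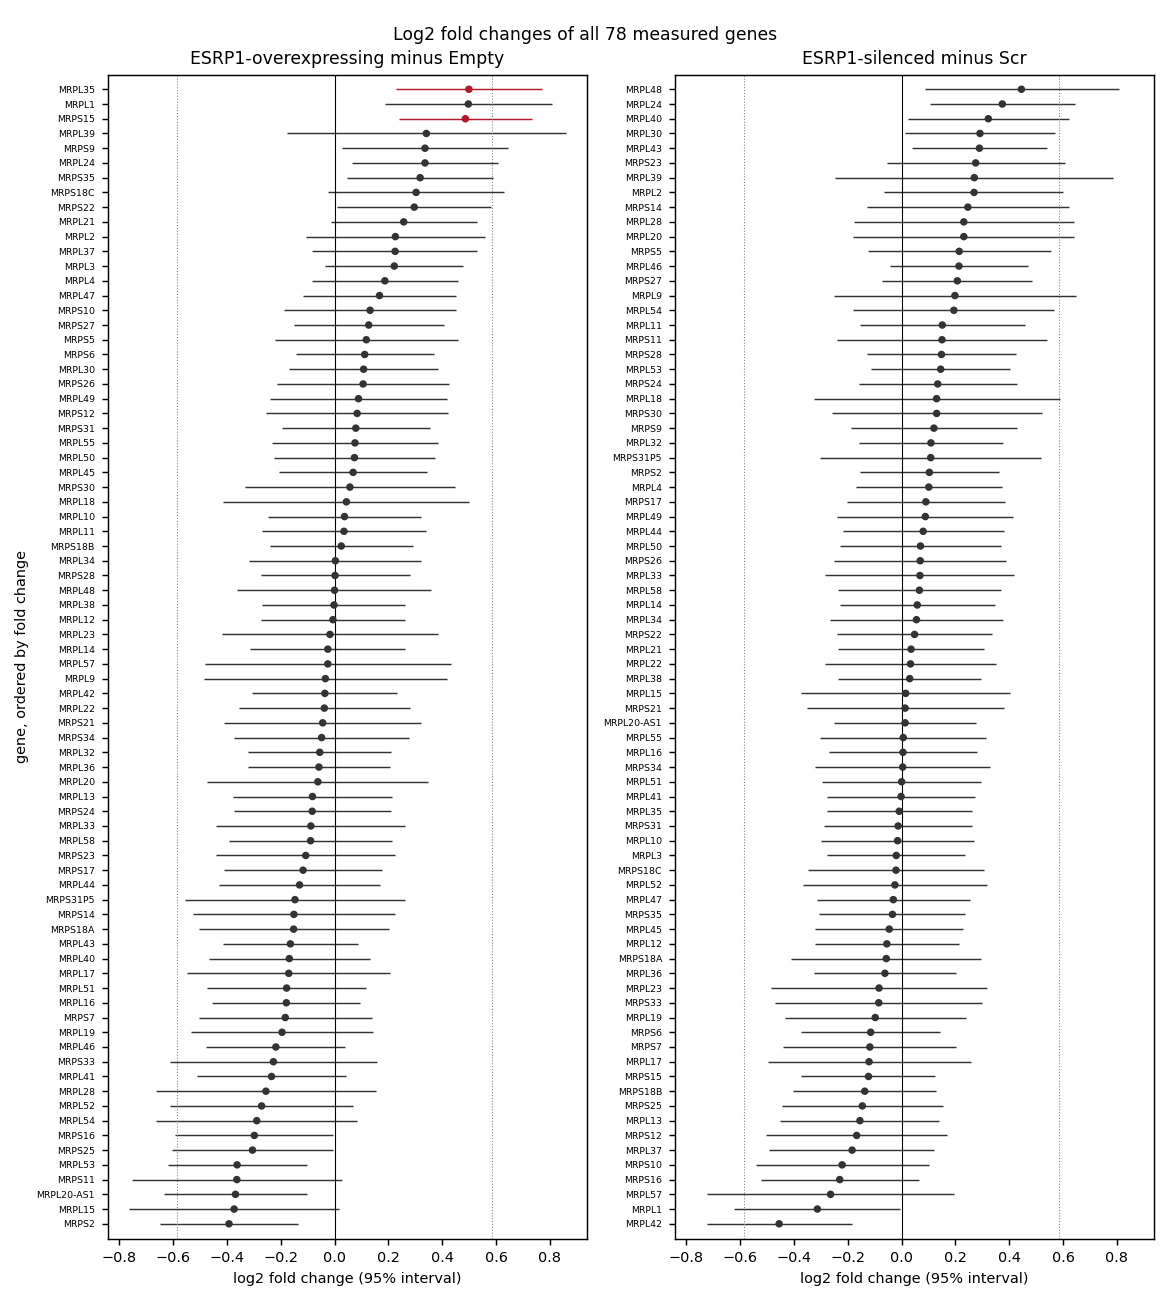
Log2 fold change with its 95% interval (x axis) of all 78 genes (y axis, ordered within each panel) with ESRP1 overexpression (left) and silencing (right); red marks an adjusted p under 0.05 and the dotted lines 1.5-fold. The values run from -0.39 to 0.50 on the left, with MRPL35 and MRPS15 in red, and from -0.45 to 0.45 on the right, with none in red.

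Raising and lowering ESRP1 were then set side by side. Over the 78 genes the fold changes of the comparisons, which share no array, correlated at r = -0.06, and 44 genes had opposite signs. Arrays were apart in both comparisons in opposite directions for 10 genes (12.8%, against 15% of all genes). Of these, MRPL1, MRPS15 and MRPS6 were high with overexpression and low with silencing, and MRPL40, MRPL43, MRPL46, MRPL53, MRPL54, MRPS2 and MRPS23 the reverse. Arrays were apart in the same direction for 4 genes (5.13%, against 14.6% of all genes), MRPL2 and MRPL24 higher and MRPS16 and MRPS25 lower. When the difference of the comparisons was tested, none of the 78 genes passed, against 3.52% of all genes. The largest were those of MRPL1 (0.81), MRPS15 (0.61, adjusted p = 0.082) and MRPS11 (-0.51, adjusted p = 0.27).

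Stalk, membrane and decoding proteins were read by role, beside MRPL1 and MRPS9 above. MRPL12 and MRPL10, which form the stalk that recruits translation factors, differed by -0.01 and 0.04 with overexpression and by -0.06 and -0.02 with silencing. MRPL11, at the base of that stalk, differed by 0.04 and 0.15. MRPL45, which ties the ribosome to the inner membrane, differed by 0.07 and -0.05 with its brightest probe and by 0.42 (adjusted p = 0.105) and 0.04 with its second. MRPS12, a protein of the decoding centre, read 14.04 and 14.13 on the Empty arrays and 14.16 and 14.19 with overexpression, a difference of 0.08, and differed by -0.17 with silencing. Its other probes differed by 0.31 and 0.28 with overexpression. None of the 10 values of the brightest probes had an adjusted p under 0.654.

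Among the genes in which inherited mutations cause mitochondrial disease, MRPL3 differed by 0.22 with overexpression (adjusted p = 0.25) and by -0.02 with silencing. Its second, much dimmer probe, detected on 7 arrays, differed by 0.49 (adjusted p = 0.325) and -0.48 (adjusted p = 0.497). MRPL44 differed by -0.13 and 0.08, MRPS34 by -0.05 and 0.00, and MRPS22 by 0.30 (adjusted p = 0.18) and 0.05. MRPS16 had negative values in both comparisons, -0.30 (adjusted p = 0.19) and -0.23 (adjusted p = 0.46). Empty arrays read 12.43 and 12.44 against 12.17 and 12.11 with overexpression, and Scr arrays 11.87 and 11.77 against 11.47 and 11.71 with silencing. Neither difference passed the test, although the arrays did not overlap.

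The 3 paralogues of bacterial protein S18 sit at different places in the ribosome. MRPS18C, the one in the bacterial position, differed by 0.30 with overexpression (adjusted p = 0.22) and by -0.02 with silencing. MRPS18B, elsewhere in the small subunit, differed by 0.03 and -0.14. MRPS18A, in the large subunit, differed by -0.15 (0.04 without replicate 2 of Empty) and -0.06. MRPS30, also of the large subunit despite its symbol, differed by 0.06 and 0.13 (-0.08 with silencing without replicate 2 of Scr). None was called.

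Large and small subunit genes had like medians. With overexpression the median log2 fold change was -0.03 over the 50 large subunit genes and 0.01 over the 26 small subunit genes, with 1 called in each (2% and 3.85%, against 8.07% of all genes). With silencing the medians were 0.045 and 0.01, with none called. Genes with a bacterial counterpart had medians of -0.01 and 0.03 and genes found only in mitochondria -0.04 and 0.05, and both called genes belonged to the 45 of the former class (4.44%). Lists of like genes were counted in the same way. Of 73 cytosolic ribosomal protein genes 1 was called with overexpression (median -0.01) and none with silencing (median 0.04). Of 73 nuclear genes for oxidative phosphorylation subunits, 1 was called higher and 1 lower with overexpression (median -0.015) and none with silencing (median 0.07). The middle 50% of the cytosolic genes spanned 0.17 with overexpression and that of the oxidative phosphorylation genes 0.28, both less than the 0.45 of all genes.

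**Figure D4:**
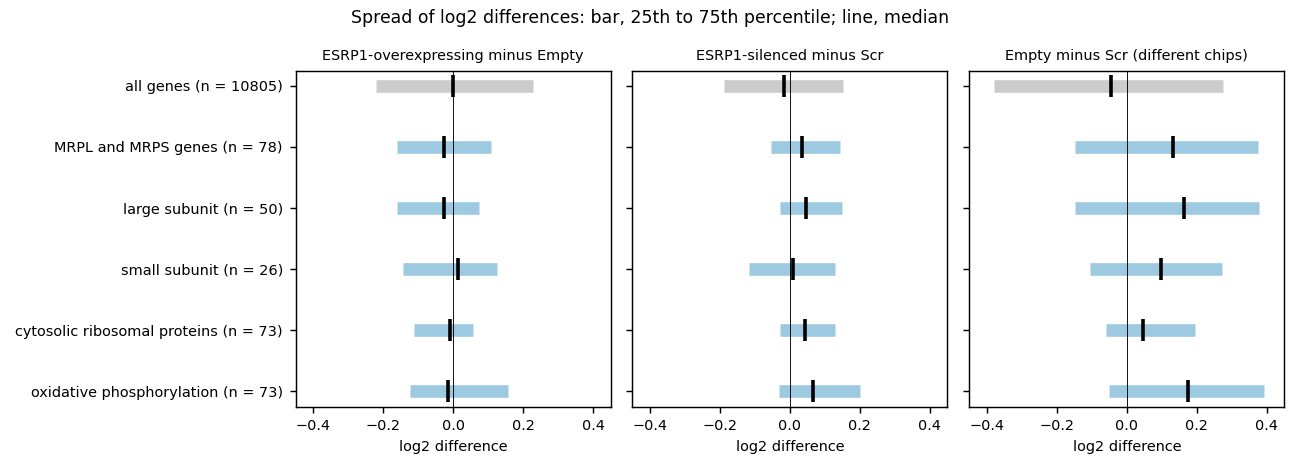
Middle 50% (bars) and median (black lines) of log2 differences (x axis) for all genes (grey) and 5 gene lists (blue, y axis), in the comparisons of ESRP1 overexpression and silencing and between the control groups on different chips. Every list has a shorter bar than all genes in the first 2 panels, and the mitochondrial ribosomal protein genes have a median of 0.13 between the controls, against -0.04 for all genes.

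The 78 genes differed more between the control groups than in either comparison, the median absolute difference being 0.29 against 0.13 with overexpression and 0.11 with silencing. All genes did likewise, with 0.33 against 0.23 and 0.17. Empty and Scr differ in chip, vector and selection drug, which cannot be told apart, so only values are given. The median of Empty minus Scr was 0.13 over the 78 genes and -0.04 over all genes, and 14 of the 78 (17.9%) differed by over 1.5-fold, against 25.3% of all genes. The arrays did not overlap for 61 of the 78 genes (78.2%), 40 higher and 21 lower in Empty, against 70.1% of all genes. MRPL57 had the largest gap, with 10.03 and 10.33 on the Scr arrays, 9.73 and 10.11 with silencing, 8.83 and 9.09 on the Empty arrays and 9.06 and 8.80 with overexpression. All 4 arrays of 1 chip were above all 4 of the other. MRPS10, a small subunit protein, was lower in Empty by 0.72 (12.51 and 12.76 against 11.91 and 11.90), MRPS18B by 0.61 and MRPL12 by 0.51. In the opposite direction, MRPL48 was higher in Empty by 0.80, MRPL17 by 0.76, MRPL20-AS1 by 0.70, MRPL15 by 0.69 and MRPL40 by 0.68. The Empty arrays enter both this difference and the comparison with overexpression, so the values are only set side by side. MRPS15 and MRPL1 were lower in Empty than in Scr by 0.75 and 0.61, and overexpressing cells differed from Scr by -0.26 and -0.11. MRPL57 and MRPL48, with the widest gaps between the chips, differed from Scr by -1.25 and 0.80 in overexpressing cells.

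**Figure D5:**
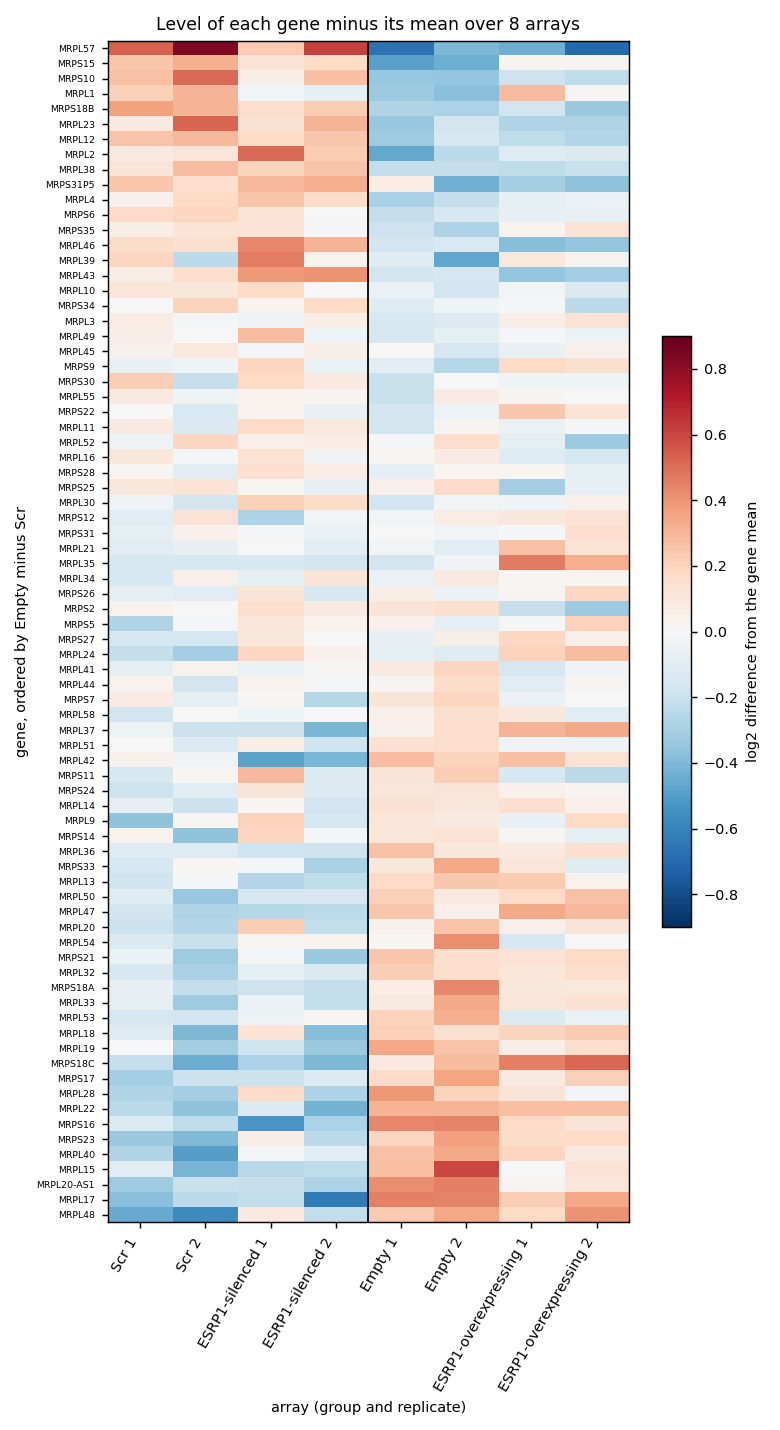
Level of each of the 78 genes (rows, ordered by Empty minus Scr) on each array (columns) as the log2 difference from the gene's mean over the 8 arrays (colour, red high and blue low); the black line separates the chips. The colours change mainly at that line, from MRPL57 (-1.22) at the top to MRPL48 (0.80) at the bottom, and less within a chip.

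For 24 genes more than 1 probe was detected, which gives a second reading of the same RNA or of other transcripts of the gene. The probes of a gene had the same sign in 13 of the 24 genes with overexpression and in 12 of the 24 with silencing. Counting only probes detected on all 8 arrays, these were 12 and 13 of 22 genes. Of the 107 detected probes of the 78 genes, 1 besides the brightest was called with overexpression, that of MRPL35, and none with silencing. Over all 18231 tested probes, 1354 were called with overexpression and 24 with silencing. Agreement was close for MRPS11 (-0.36 and -0.38 with overexpression, 0.15 and 0.14 with silencing), MRPL21 (0.26 and 0.21 with overexpression) and MRPL24. Probes went apart for MRPL30 (0.11 and -0.36 with overexpression), MRPL10 (0.04 and -0.22), MRPL4 (0.19 and -0.32) and MRPL11 (0.04, -0.22 and 0.09), all with adjusted p of at least 0.257. MRPS18B read 0.03 and -0.09 with overexpression. With silencing the signs also differed for MRPS12 (-0.17, -0.26 and 0.12), MRPL11 (0.15, -0.17 and 0.24), MRPL30 (0.29 and -0.01) and MRPL45 (-0.05 and 0.04). None of these probes was called. Further probes of MRPL57, MRPL43 and MRPL55 passed detection on only 4, 3 and 3 arrays, and their signs are not read.

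MRPS11 and MRPL46 face each other head to head on chromosome 15 with 320 bases between their starts, so that a small and a large subunit gene share an upstream region. Both had negative values with overexpression, -0.36 and -0.22 (adjusted p = 0.22 and 0.26), and positive ones with silencing, 0.15 and 0.21. For MRPS11 the latter became -0.06 without replicate 1 of the silenced cells. The 120 bases before each start are shown, and together they make up most of the shared region.
MRPS11 (chr15:88467588-88467707, plus strand): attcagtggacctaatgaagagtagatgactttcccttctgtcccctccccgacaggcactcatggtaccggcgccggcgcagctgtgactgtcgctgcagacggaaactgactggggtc
MRPL46 (chr15:88467389-88467508, minus strand): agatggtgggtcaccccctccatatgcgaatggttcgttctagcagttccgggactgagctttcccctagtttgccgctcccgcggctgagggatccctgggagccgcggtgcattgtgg
None of the 5 motifs stands in either stretch. A start of another gene within 500 bases upstream on the opposite strand was found for 17 of the 68 genes (25%), against 16.5% of all protein-coding genes. MRPS12 is paired in this way with SARS2, the mitochondrial seryl-tRNA synthetase, at 181 bases, and they differed by 0.08 and 0.34 with overexpression and by -0.17 and -0.16 with silencing. MRPS18C and its neighbour HELQ, a DNA helicase, differed by 0.30 and 0.32 with overexpression and by -0.02 and -0.28 with silencing. Not all 17 neighbours were measured, and MRPS11 and MRPL46 count as each other's neighbour. No measured neighbour was called in either comparison, against 8.07% of all genes with overexpression and 0.157% with silencing.

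The genes were also split by the letters in their promoters. With overexpression the median was -0.075 over the 28 genes with the ETS letters and 0.00 over the 40 without, and with silencing 0.02 and 0.06. Over the 20 genes with the YY1 letters it was -0.04 (-0.03 over the 48 without), and with silencing -0.01 and 0.07. Over the 6 genes with the E-box it was 0.08 (-0.035 over the 62 without) and with silencing -0.03 and 0.06. The 6 with NRF1 letters had -0.05 and -0.02 (-0.025 and 0.06 without), and the 42 with SP1 letters -0.01 and 0.06 (-0.035 and 0.02 without). MRPS10 holds the ETS, YY1 and SP1 letters, the ETS letters close to its start. Its differences were 0.13 with overexpression and -0.22 with silencing.
MRPS10 (chr6:42217862-42217981, minus strand): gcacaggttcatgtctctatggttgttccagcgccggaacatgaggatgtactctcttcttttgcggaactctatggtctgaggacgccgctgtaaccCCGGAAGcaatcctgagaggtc

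The machinery around the ribosome was read from further lists. Of 13 measured regulators of nuclear genes for mitochondria, 3 were called higher with overexpression, against 8.07% of all genes called in either direction, and none with silencing. PPARGC1B, a transcriptional coactivator of mitochondrial genes, read 6.94 and 6.50 on the Empty arrays, where it was not detected, and 7.82 and 8.15 with overexpression, which is at least 1.98-fold higher (adjusted p = 0.025). In Scr and ESRP1-silenced cells it read from 7.69 to 8.15, so that only the Empty arrays were low. MYC, a transcription factor that drives ribosome production, read 12.75 on both Empty arrays and 13.38 and 13.36 with overexpression, a rise of 0.62 ± 0.11 (adjusted p = 0.021). With silencing it differed by -0.52 (adjusted p = 0.14), from 13.11 and 13.02 to 12.51 and 12.57, and here 4 of 17 alternative settings passed. CLUH, an RNA-binding protein of messenger RNAs for mitochondrial proteins, differed by 0.48 ± 0.11 (adjusted p = 0.044), from 10.35 and 10.33 to 10.81 and 10.83. Scr arrays read 10.80 and 10.87 and silenced arrays 10.67 and 10.76, so that the Empty arrays were the low ones here too. The calls of MYC and PPARGC1B held in 11 of 17 and 11 of 16 alternative settings, and CLUH in 6 of 17. All 3 lost the call when either ESRP1-overexpressing array was left out (adjusted p from 0.070 to 0.17). MYC lost it also without either Empty array (0.072 and 0.076), PPARGC1B without replicate 2 of Empty (0.086) and CLUH without any 1 of the 8 arrays.

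A further list held 16 mitochondrial aminoacyl-tRNA synthetases, which charge tRNAs, and 2 subunits of the amidotransferase that completes glutaminyl-tRNA. Of these, 1 gene was called with overexpression (5.56%, against 8.07% of all genes) and none with silencing (0.157% of all genes). PARS2, for proline, was not detected in Empty (7.04 and 6.80) and read 7.90 and 8.04 with overexpression, at least 1.97-fold higher (adjusted p = 0.022). The call was lost without either ESRP1-overexpressing array (adjusted p = 0.085 and 0.10) or replicate 2 of Empty (0.081). It read from 6.75 to 7.14 on the arrays of the other chip. The remaining lists held no called gene in either comparison, against 8.07% of all genes with overexpression and 0.157% with silencing. They were 14 translation factors, 19 assembly factors, 23 genes of mitochondrial transcription and RNA and 4 of mitochondrial DNA replication. GRSF1, an RNA-binding protein of mitochondrial RNA granules that acts in ribosome assembly, differed by 0.48 ± 0.11 with overexpression (adjusted p = 0.051), from 11.57 and 11.50 to 11.94 and 12.08, and passed in 5 of 17 alternative settings. With silencing it differed by -0.28 (adjusted p = 0.35).

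Mitochondrial ribosomal proteins that carry other symbols were measured with 4 genes and none was called. Over all genes 8.07% were called with overexpression and 0.157% with silencing. DAP3, the GTP-binding protein of the small subunit, differed by -0.03 with overexpression and -0.10 with silencing. GADD45GIP1, of the large subunit, read 8.89 and 8.32 on the Empty arrays and 7.99 on both overexpressing ones, a difference of -0.61 ± 0.19 (adjusted p = 0.10). The Empty arrays were themselves far apart. CHCHD1, of the small subunit, differed by -0.37 (adjusted p = 0.16) and 0.12. PTCD3 was detected only on the 2 silenced arrays (6.95 and 6.99) and entered the list through them, so its level there is not read as a difference. The test against Scr did not pass (adjusted p = 0.34). No named probe stood for the genes of mitochondrial DNA, so the products that this ribosome translates were not measured here.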

How the data were processed

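RNA of 8 Caco-2 samples was hybridised to Illumina HumanHT-12 arrays, 4 groups of 2 arrays on 2 chips. The authors deposited raw probe intensities with a detection p-value for each probe and array, without background correction or normalization, and a second set of normalized intensities on a linear scale (median 192.3), used here as an alternative. A detection p-value is the share of negative control probes brighter than the probe, computed by the scanner software before the files were deposited. In 88 p-value cells a 1 had lost its decimal point to a comma and was read as 1. No read depth exists, and the number of arrays limits the precision.

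Intensities were background-corrected and quantile-normalized with neqc of limma 3.58.1 (R 4.3.3; offset 16, background from the detection p-values). Of 47322 probes, 18231 passed detection (p below 0.01 on 2 or more arrays) and were fitted over all 8 arrays (lmFit, eBayes), and p-values were adjusted over them by Benjamini-Hochberg. Platform symbols gave 1 gene to 30113 probes, several to 8 and none to 17201; all 78 genes matched RefSeq (GRCh38.p14) by gene ID. A permutation test of 2 against 2 arrays cannot go below p = 0.333. The fitting code was checked on simulated data.

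The genes and lists were chosen with earlier results of these data known. Named genes were those called, the 6 highest and 6 lowest of each comparison and a fixed set by role. MRPL2, MRPL4, MRPL17, MRPL20, MRPL21, MRPL46, MRPL54 and MRPS6 were named after their values were seen. Where a gene was not detected in a group, the bound sets the brighter mean against the higher of the dim reading and the lowest detected signal of each array. The replicate numbers did not pair the arrays. The alternatives were other normalizations, detection filters, variance priors, probe summaries, arrays in the fit, a replicate block, each array left out and the t-test of the study's methods. That t-test was run on the values normalized here, with its fold filter read as 1.5-fold.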

Additional observations from a re-analysis of the deposited data

How the results depend on the processing

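With overexpression, 2 of the 78 genes were called. The count was 4 (3 higher, 1 lower) with quantile normalization without background correction, with the authors' values and with detection required on all 8 arrays, 9 (6 higher, 3 lower) with a trended robust prior, and 0 without a detection filter, with only the 4 arrays of the comparison, with the methods' t-test and without any 1 array. The methods' t-test alone passed 5 of the 78 genes at its p threshold, against 934 of the 18231 probes tested. After Benjamini-Hochberg adjustment it passed 0 of the 78 genes and 0 of all probes. With silencing the count of 0 became 1, MRPL42, with the trended robust prior. The difference of the comparisons gave 2 under the quantile, authors' and all 8 settings and 5 with the trended prior. Over all probes the counts were 1354 with overexpression and 24 with silencing. They became 2287 and 283 (quantile), 2140 and 219 (authors' values), 508 and 0 (no filter), 142 and 0 (4 arrays), 2557 and 549 (trended prior), 452 and 125 (t-test), and 376 to 998 and always 0 with 1 array left out. With silencing they were also 46 (chips normalized separately) and 237 (detected on all 8 arrays). The cause was not tested.

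The replicate number was no evident pairing, since deviations of same-numbered arrays correlated at 0.027 and 0.059. With the replicate block 0 of the 78 genes were called in either comparison, and 1061 and 0 of all probes.

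The medians over the 78 genes, relative to all genes, moved by less than the spread between replicates, from -0.047 to 0.003 with overexpression and from 0.001 to 0.104 with silencing. Of 1190 alternative values of 35 named genes, 1149 kept their side of the threshold, with changes of sign within 1 SD of an uncalled value counted as kept. With the mean of a gene's probes, MRPL10 became -0.092, MRPL30 -0.126 and MRPL42 0.196 with overexpression. With 1 array left out, MRPS18A ran from -0.338 to 0.035 with overexpression, and MRPS11 from -0.061 to 0.362, MRPS30 from -0.081 to 0.342 and PARS2 from -0.192 to 0.196 with silencing. The alternatives of PARS2, MYC, CLUH, GRSF1 and PPARGC1B were chosen after seeing the data.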
